A study of Mus musculus with 6 samples.

Results

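The fibrillar collagens are the collagen chains that assemble into the banded fibrils of connective tissue. The genes described here are the 10 rows of the exonic count table whose Ensembl identifier, with its version dropped, maps to Col1a1, Col1a2, Col2a1, Col3a1, Col5a1, Col5a2, Col5a3, Col11a1, Col24a1 or Col27a1, out of 55401 genes listed. All 10 passed the filter on low counts, which left 22318 genes for testing. Bulk RNA-seq libraries came from cultured Schwann cells (SCs), the glia of peripheral nerve, which had been taken from the dorsal root ganglia of adult C57BL/6 mice. There were 3 WT and 3 Plxnb1-/- cultures. Plxnb1-/- cells carry a gene-trap allele of Plexin-B1, a receptor for class 4 semaphorins, in every cell of the mouse, so that nothing in the design limits the loss to SCs. Both genotypes were grown in the same medium with serum, forskolin, neuregulin and ascorbic acid, a cofactor of the enzymes that hydroxylate collagen. Contaminating fibroblasts had been removed with antibodies against Thy1, and the cells had been passaged, with a purity that the methods give as high but not complete. The comparison asks what Plexin-B1 contributes to the physiology of SCs.

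Each fibrillar collagen chain is a long run of glycine-X-Y triplets that winds with a pair of other chains into a triple helix. The propeptides at the ends are cut off outside the cell, and the trimmed molecules line up into fibrils and are crosslinked. Types I and III form the bulk of fibrils in nerve connective tissue, whereas the minor fibrillar types V and XI are built into the fibrils and set their thickness, and type II belongs to cartilage. SCs in culture are known to secrete type V collagen. Ascorbic acid lets SCs deposit a matrix and myelinate.

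The labels and the cell type were checked first. In CPM, which are counts scaled to the size of each library with TMM factors, Plxnb1 measured 61.8, 45.4 and 96.4 in the WT libraries and 13.1, 16.6 and 18.6 in the Plxnb1-/- libraries, here and throughout in the order of replicates 1, 2 and 3. It was lower by a log2 fold change of -2.08 ± 0.25 (SE, n = 3 per genotype; edgeR quasi-likelihood test, adjusted p = 0.0449), and the genotypes did not overlap. The SC markers Sox10, Erbb3 and Cdh19 had WT means of 486 ± 47.8, 392 ± 59.5 and 234 ± 13.7 CPM (SD, n = 3). Total counts lay between 59252048 and 77280964 per library, so that 3 counts, the floor of detection, correspond to between 0.0388 and 0.0506 CPM, for counting error only. Nothing in the labels says whether the 3 replicates of a genotype came from separate animals, and p-values measure the spread between these libraries.

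The feature that the genes share in the genome is a chain of short exons. GENCODE gives them between 48 and 68 exons each once the exons of all transcripts are merged, with a median exon of 54 bases in all 10 genes. The median over the 15604 tested protein-coding genes was 172 bases. The 10 reference transcripts hold 583 exons, and 274 of these (47.0%) are exactly 54 bases long, with between 21 and 33 per gene. In 271 of the 274, every triplet group of the exon starts with a glycine codon, so that each such exon codes for a whole number of glycine-X-Y repeats. The first such exon is shown for the 6 chains on which the results turn, 5′ to 3′ in the coding direction from GENCODE transcripts on GRCm38, with the glycine codons (GGN) in capitals.

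Col1a1, exon 8, chr11:94939904-94939957, plus strand: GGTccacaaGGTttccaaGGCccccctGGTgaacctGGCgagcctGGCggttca
Col1a2, exon 8, chr6:4515481-4515534, plus strand: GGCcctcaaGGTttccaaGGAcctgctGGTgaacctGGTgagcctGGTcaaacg
Col3a1, exon 6, chr1:45325360-45325413, plus strand: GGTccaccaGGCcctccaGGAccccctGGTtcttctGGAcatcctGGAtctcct
Col5a1, exon 15, chr2:27965251-27965304, plus strand: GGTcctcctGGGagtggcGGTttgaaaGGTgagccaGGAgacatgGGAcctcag
Col5a3, exon 15, chr9:20801068-20801121, minus strand: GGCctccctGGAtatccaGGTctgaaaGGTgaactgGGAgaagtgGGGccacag
Col2a1, exon 6, chr15:97998545-97998598, minus strand: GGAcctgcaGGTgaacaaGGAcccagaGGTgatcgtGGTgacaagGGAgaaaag

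The exons of Col1a1 and Col1a2, the partner chains of type I collagen, matched at 42 of 54 positions, the most of any pair among the 10. Those of Col5a1 and Col5a3, both type V chains, matched at 37 of 54. The exons are the first of their kind in each gene and were not matched by their place in the chain. The leading GG of each glycine codon matches in every pair by the choice of exon. These counts therefore do not rank how alike the chains are. All are coding exons of glycine-X-Y repeats, and none is an untranslated region. Whether each codes for the main triple helix or for a propeptide was not checked.

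Short exons bear on the measurement because the authors aligned reads with Bowtie2, which does not span introns. Exons under 150 bases held between 19.3% of the exonic bases, in Col1a2, and 55.5%, in Col5a3. The median over tested protein-coding genes was 8.95%, and 3277 of those genes lay above Col1a2. A read of 150 bases fits inside 1 exon at 24.8% of the start positions of Col5a3, at 33.4% of those of Col1a1 and at 66.3% of those of Col1a2. The read length is not given in the sources used here. Both genotypes were counted in the same way, and the effect of exon length on the counts themselves was not tested.

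**Figure D1:**
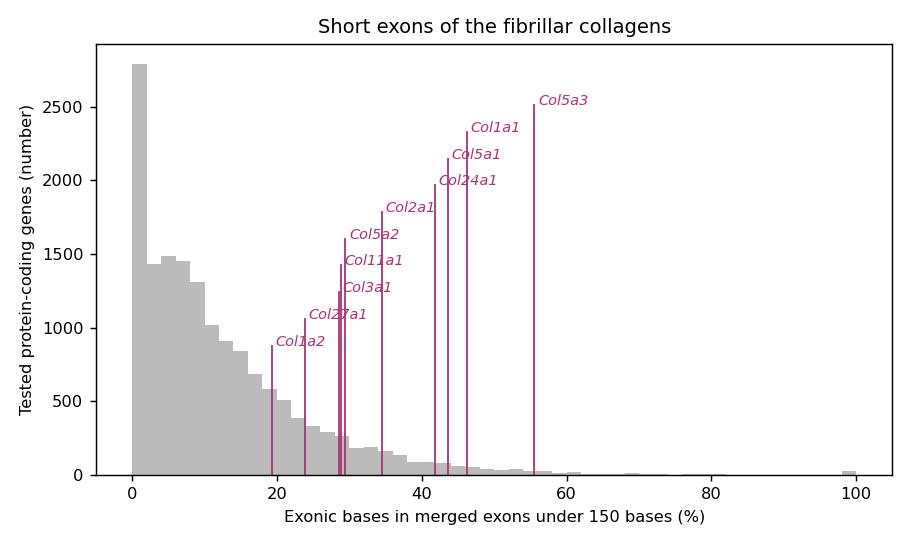
Histogram of the 15604 tested protein-coding genes by the percentage of their exonic bases that lie in merged exons under 150 bases. Vertical lines mark the 10 fibrillar collagens, which run from 19.3% for Col1a2 to 55.5% for Col5a3, all above the median of 8.95%; the heights of the lines only separate the names.

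Chains of types I and III were among the most counted genes in the cultures of both genotypes. The 10 genes together took 2.41%, 2.78% and 2.44% of all counts in WT replicates 1, 2 and 3, and 2.20%, 2.28% and 2.21% in Plxnb1-/- replicates 1, 2 and 3. The share was therefore lower in every Plxnb1-/- library than in every WT library. Within the family, type I chains made up 46.8% ± 0.40 (SD, n = 3) of the counts in WT and 46.3% ± 0.14 in Plxnb1-/- cells. Type V chains made up 29.5% ± 0.97 and 30.0% ± 0.27, and type III 20.7% ± 1.07 and 20.3% ± 0.34. The proportion of type I was lower in every Plxnb1-/- library than in every WT library, whereas the genotypes overlapped in those of types III and V. Col1a1 stood between the second and the fourth place of all genes by count in every library, and Col3a1 at the fifth place.

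Levels between genes were compared per kilobase of merged exon. In WT, Col1a1 led with 948 ± 116 CPM per kb (SD, n = 3), followed by Col3a1 with 540 ± 75.0 and Col1a2 with 464 ± 32.6. Col5a2 reached 403 ± 16.9, Col5a1 318 ± 22.8 and Col5a3 142 ± 15.4 CPM per kb. Col11a1, the main type XI chain, reached 54.3 ± 4.80, and Col27a1, a chain known from cartilage, 5.17 ± 0.32. The WT libraries of Col3a1 and Col1a2 overlapped in range, whereas those of the other neighbours in this order did not. Col24a1, a bone collagen chain, and Col2a1, the chain of cartilage type II collagen, had 0.135 ± 0.027 and 0.0833 ± 0.018 CPM per kb. In Plxnb1-/- cells the first 8 places were the same, with Col1a1 at 771 ± 25.0 and Col3a1 at 459 ± 15.3 CPM per kb.

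The order of the most abundant chains depended on the length used. GENCODE's merged exons of Col1a2 span 12426 bases because transcripts that keep introns are included, against 5348 bases for its coding transcripts. Per kb of coding transcript, Col1a2 led in WT with 1078 ± 75.7 CPM per kb, and Col1a1 followed with 1049 ± 129, a difference smaller than the SD of either. Per kb of start positions at which a read of 150 bases fits inside 1 exon, Col1a1 led in WT with 2839 ± 348 CPM per kb, followed by Col3a1 with 959 ± 133 and Col5a1 with 820 ± 58.8, and Col1a2 came after Col5a2 with 699 ± 49.1. With reads of 100 bases the WT order was the same as with 150. The FPKM values that the authors deposited are per span of the gene with introns included, which is between 2.56 and 34.1 times the exon length in these genes, so they were not used to compare genes.

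**Figure D2:**
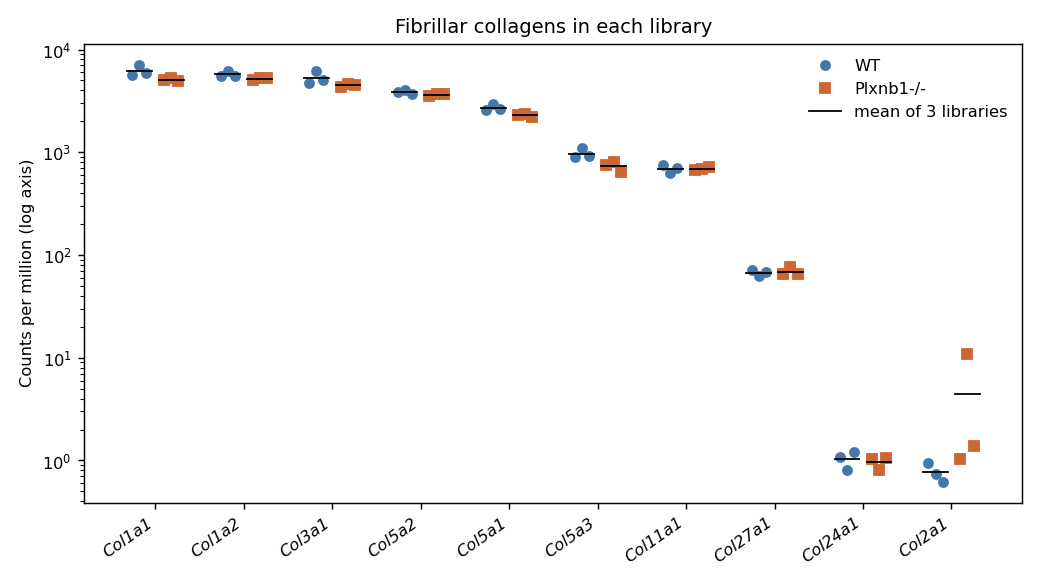
CPM of each fibrillar collagen in each library on a log axis, ordered by the WT mean, with circles for WT, squares for Plxnb1-/- and lines for the mean of 3 libraries. The 7 most abundant genes lie at 627 CPM or more in all libraries, and Col2a1 has 1 Plxnb1-/- library at 10.9 CPM while its other libraries lie between 0.621 and 1.38 CPM.

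None of the 10 genes was called between genotypes by edgeR, the main test (adjusted p below 0.05 and absolute log2 fold change above 0.25), which called 0.0358% of all tested genes. The adjusted p values ranged from 0.266 to 0.983. DESeq2 called 2 of the 10, Col1a1 and Col5a3, both lower in Plxnb1-/- cells, beside 1.50% of all tested genes. At an unadjusted p below 0.05, edgeR found 5 members lower and 1 higher, where 6.78% and 6.95% of all tested genes were lower and higher. The count of members lower was 3 without Plxnb1-/- replicate 1, 4 without Plxnb1-/- replicate 2 or 3, and 3 by limma on FPKM. With all libraries, the 5 genes Col1a1, Col1a2, Col3a1, Col5a1 and Col5a3, were lower in Plxnb1-/- cells with no overlap between the genotypes, which 10.4% of all tested genes were. Col2a1 was higher with no overlap, as were 9.30% of all tested genes, and the other 4 overlapped. The median log2 fold change of the 10 was -0.12, against 0.005 over all tested genes, and 8 of the 10 were below 0, as were 48.5% of all tested genes.

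Type I collagen is the main fibril former, a trimer of Col1a1 and Col1a2 chains. Col1a1 (ENSMUSG00000001506, GRCm38 chr11:94936224-94953042, plus strand) measured 5695, 7095 and 5869 CPM in WT and 5038, 5232 and 4906 CPM in Plxnb1-/- libraries. All Plxnb1-/- libraries lay below all WT libraries, and WT replicate 2 lay highest. The log2 fold change was -0.30 ± 0.08 (SE, n = 3 per genotype; 95% interval -0.48 to -0.12), or 0.813 times the WT level, with an adjusted p of 0.273 by edgeR and 0.0258 by DESeq2.

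Col1a2 (ENSMUSG00000029661, chr6:4504814-4541544, plus strand) measured 5509, 6231 and 5552 CPM in WT and 5037, 5336 and 5282 CPM in Plxnb1-/- libraries. The groups did not overlap, though the gap between the lowest WT and the highest Plxnb1-/- library was narrow. The log2 fold change of -0.14 ± 0.06 (95% interval -0.27 to -0.01) did not pass in edgeR (adjusted p = 0.334) or in DESeq2 (adjusted p = 0.223).

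The balance between the type I chains was compared within each library, where scaling between libraries plays no part. Counts of Col1a1 per count of Col1a2 were 1.03, 1.14 and 1.06 in WT and 1.00, 0.981 and 0.929 in Plxnb1-/- replicates 1, 2 and 3. Every Plxnb1-/- ratio was below every WT ratio, with means of 0.970 ± 0.037 and 1.08 ± 0.055 (SD, n = 3). The mean log2 ratio differed by -0.15 (exact two-sided permutation test, p = 0.1, the smallest p that 3 against 3 allows). A similar order was found after the values were seen for the type V chains: Col5a1 per Col5a2 was 0.665, 0.727 and 0.707 in WT and 0.643, 0.651 and 0.594 in Plxnb1-/- libraries, and Col5a3 per Col5a2 was 0.232, 0.271 and 0.249 against 0.213, 0.220 and 0.175. Col3a1 per Col1a1 and Col5a1 per Col1a1 overlapped between genotypes, with mean log2 ratios that were 0.07 and 0.05 higher in Plxnb1-/- cells. These ratios are given without a test.

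Type III collagen, a trimer of Col3a1 chains, mixes with type I in fibrils of soft tissue. Col3a1 (ENSMUSG00000026043, chr1:45311538-45349706, plus strand) measured 4727, 6130 and 5039 CPM in WT and 4339, 4625 and 4562 CPM in Plxnb1-/- libraries. WT replicate 2 stood well above the other WT libraries, and the other WT values came close to the highest Plxnb1-/- value. The log2 fold change was -0.23 ± 0.09 (95% interval -0.43 to -0.03; adjusted p = 0.318 by edgeR and 0.143 by DESeq2). Without WT replicate 2 it was -0.11. A miRNA gene, Gm47302, shares 141 of the 9816 exon bases of Col3a1 on the same strand, and its counts did not exceed 6822 in any library.

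Type V collagen starts fibrils and limits their diameter. Of its 3 chains, Col5a3 had the largest difference, with 897, 1090 and 922 CPM in WT and 755, 806 and 649 CPM in Plxnb1-/- libraries (ENSMUSG00000004098, chr9:20770050-20815067, minus strand). The genotypes did not overlap, and Plxnb1-/- replicate 3 was lowest. The log2 fold change was -0.40 ± 0.09 (95% interval -0.61 to -0.19), or 0.760 times the WT level (adjusted p = 0.266 by edgeR and 0.0057 by DESeq2). Col5a3 lies on the chromosome of Plxnb1, 88.3 Mb away.

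Col5a1 (ENSMUSG00000026837, chr2:27886425-28039514, plus strand), the chain found in most type V trimers, measured 2571, 2926 and 2614 CPM in WT and 2281, 2378 and 2206 CPM in Plxnb1-/- libraries, again without overlap. Its log2 fold change was -0.24 ± 0.06 (95% interval -0.37 to -0.11; adjusted p = 0.273 by edgeR). DESeq2 gave an adjusted p of 0.0213, but the change was under the fold cutoff. The antisense genes 2810430I11Rik and Gm13372 share 99 and 113 exon bases with Col5a1, and the strand setting of the counting is not given in the sources used here.

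Col5a2 (ENSMUSG00000026042, chr1:45374321-45503282, minus strand) is the neighbour of Col3a1, with 24.6 kb between the genes. It measured 3867, 4022 and 3697 CPM in WT and 3544, 3655 and 3714 CPM in Plxnb1-/- libraries, and the genotypes overlapped. The log2 fold change was -0.09 ± 0.05 (95% interval -0.19 to 0.02; adjusted p = 0.451 by edgeR).

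Of the abundant chains, Col11a1 had the smallest difference. Col11a1 (ENSMUSG00000027966, chr3:114030540-114220718, plus strand) codes for a type XI chain that can also join type V chains in a trimer. It measured 749, 627 and 697 CPM in WT and 674, 682 and 711 CPM in Plxnb1-/- libraries, with full overlap. WT replicate 2, highest in 6 of the 10 genes, was lowest here. The 95% interval of the log2 fold change, -0.15 to 0.14, leaves out the values fitted for Col1a1, Col3a1, Col5a1 and Col5a3, but the difference between genes was not tested.

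Col27a1 (ENSMUSG00000045672, chr4:63214004-63334991, plus strand) measured 70.7, 62.7 and 68.4 CPM in WT and 65.8, 75.6 and 65.8 CPM in Plxnb1-/- libraries, and overlapped (log2 fold change 0.04 ± 0.07, 95% interval -0.12 to 0.19). Col24a1 (ENSMUSG00000028197, chr3:145292472-145552011, plus strand) was detected at between 47 and 85 counts per library, or between 0.803 and 1.20 CPM, and its interval of -0.55 to 0.35 is too wide to show a difference of the size seen in Col1a1. These minor chains thus gave no call in either direction.

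Col2a1 (ENSMUSG00000022483, chr15:97975602-98004695, minus strand) stood apart from the other members because of 1 library. Its counts were 61, 43 and 44 in WT and 81, 793 and 96 in Plxnb1-/- replicates 1, 2 and 3, or 0.953, 0.735 and 0.621 CPM against 1.04, 10.9 and 1.38 CPM. The genotypes did not overlap, but Plxnb1-/- replicate 2 was 7.90 times the next highest library. The fitted log2 fold change was 2.53 ± 0.86 (adjusted p = 0.294 by edgeR), and 0.65 without that library. With all libraries, DESeq2 gave Col2a1 neither an unadjusted nor an adjusted p. Col2a1 was the 1 tested gene that reached at least 5 CPM in Plxnb1-/- replicate 2 at 5 times or more of each other library. Of 15 further cartilage genes chosen after this value was seen, 12 were tested, and the largest ratio of that library to the next highest among them was 1.05. Acan, the core protein of cartilage proteoglycan, was at 0.993 CPM there and between 1.19 and 2.83 CPM elsewhere. Sox9, the transcription factor that drives Col2a1 in cartilage, was at 9.35 CPM and between 9.16 and 13.1 CPM elsewhere.

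**Figure D3:**
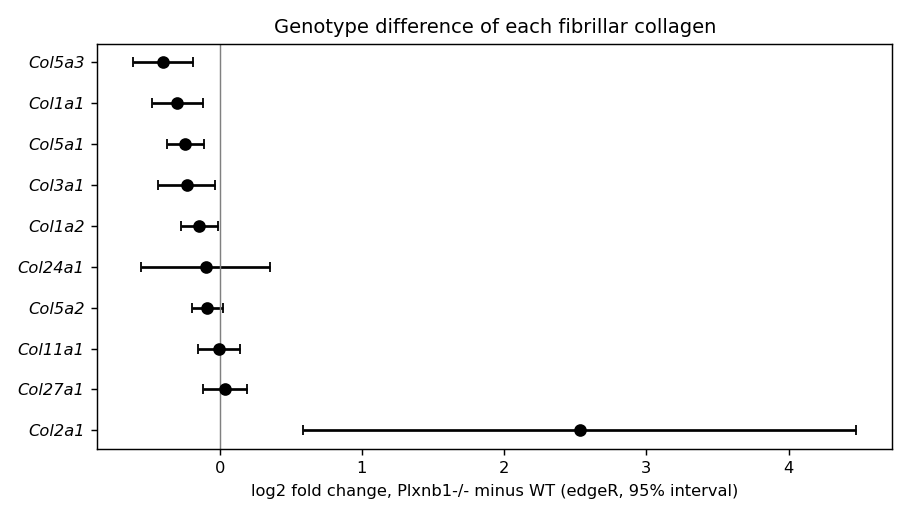
Log2 fold change of each fibrillar collagen, Plxnb1-/- minus WT, from edgeR, with points for the estimate and bars for the 95% interval, unadjusted for the number of genes tested. The intervals of Col1a1, Col1a2, Col3a1, Col5a1 and Col5a3 lie below 0, those of Col5a2, Col11a1, Col24a1 and Col27a1 span it, and that of Col2a1 lies above 0 and is the widest.

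The size of these differences and the DESeq2 calls varied with the libraries included. WT replicate 2 was the highest library for 6 of the 10 genes, and without it the log2 fold change moved to -0.19 for Col1a1, -0.08 for Col1a2 and -0.05 for Col5a2. The 5 genes with no overlap stayed lower on average whichever library was left out. Genes without overlap must do so, small shifts in scaling aside, so this is not a separate check. The DESeq2 call of Col1a1 was lost without WT replicate 2, where the adjusted p was 0.0099 but the change was under the fold cutoff, and without Plxnb1-/- replicates 1, 2 or 3 (adjusted p = 0.112, 0.121 and 0.362), where its log2 fold change in DESeq2 was -0.30, -0.32 and -0.28. The DESeq2 call of Col5a3 was lost without Plxnb1-/- replicate 3 (log2 fold change -0.32, adjusted p = 0.162). Without WT replicate 1, DESeq2 also called Col3a1 (adjusted p = 0.0113) and Col5a1 (adjusted p = 0.0048). Over all tested genes, DESeq2 called 335 of 22318 with all libraries. Without WT replicates 1, 2 or 3 it called 946 of 22710, 162 of 22781 and 219 of 22664. Without Plxnb1-/- replicates 1, 2 or 3 it called 281 of 22616, 124 of 22609 and 51 of 22690.

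**Figure D4:**
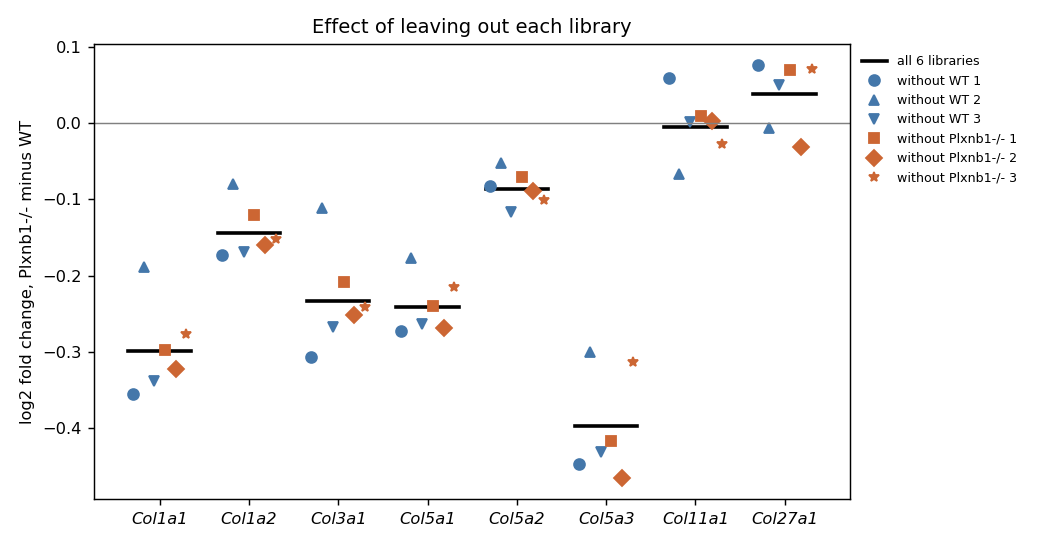
Log2 fold change from edgeR, Plxnb1-/- minus WT, for the 8 members other than Col2a1 and Col24a1, with all 6 libraries (black lines) and with each library left out in turn (symbols). Leaving out WT replicate 2 brings Col1a1 from -0.30 to -0.19 and Col3a1 from -0.23 to -0.11.

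Marker genes of other cell types were measured in the same libraries, and no marker was called by edgeR. In a bulk culture, fewer cells of a type and less RNA per cell cannot be told apart. The summed level of the 13 fibroblast markers was 638, 995 and 738 CPM in WT and 611, 611 and 558 CPM in Plxnb1-/- libraries, highest in WT replicate 2 and without overlap between genotypes. Between 94.7% and 96.0% of this sum came from Thy1, Mfap5 and Pdgfra, and the other 10 markers summed to 25.7, 40.1 and 31.1 CPM in WT and 31.2, 29.3 and 29.9 CPM in Plxnb1-/- libraries, with overlap. The list had a median log2 fold change of -0.12, with 9 of the 13 lower, 4 higher and 3 lower without overlap, as 10.4% of all tested genes were. These 3 were Thy1, the surface protein used to deplete fibroblasts (524 ± 115 CPM in WT and 401 ± 14.7 in Plxnb1-/- cells, SD, n = 3), Pdgfra, the receptor for platelet-derived growth factor (73.0 ± 15.9 and 57.8 ± 1.39), and the microfibril protein Mfap5 (161 ± 46.3 and 105 ± 15.8). Ebf2 had 17.8 ± 4.41 and 17.3 ± 0.47 CPM, Twist2 8.11 ± 1.67 and 6.86 ± 0.60, Cd34 2.87 ± 0.64 and 2.29 ± 0.30, and Comp 1.20 ± 0.37 and 1.29 ± 0.38, all with overlap. The further fibroblast markers Dpt, Pi16, Ly6a, Clec3b, Scara5 and Osr2 had means under 1 CPM in both genotypes.

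The 10 SC markers summed to 2834, 2460 and 2908 CPM in WT and 2939, 3253 and 3308 CPM in Plxnb1-/- libraries. The sum was lowest in WT replicate 2 and without overlap, and 9 markers were higher and 1 lower. At an unadjusted p below 0.05 by edgeR, 8 of the 10 were higher, as were 6.95% of all tested genes. Without overlap, 4 were higher, as were 9.30% of all tested genes. The 10 mural cell markers summed to between 2649 and 3130 CPM in WT and between 2563 and 2638 in Plxnb1-/- cells, with 4 lower and 6 higher. Acta2, the actin of smooth muscle and myofibroblasts, was the 1 of them called by DESeq2 (log2 fold change -0.42, adjusted p = 0.0172 by DESeq2), beside 1.50% of all tested genes. Sums of the macrophage markers were between 49.0 and 56.0 CPM in WT and between 57.2 and 67.9 in Plxnb1-/- cells, those of the neuron markers between 148 and 162 and between 164 and 184, and those of the endothelial markers between 67.3 and 89.0 and between 70.6 and 77.0. Of the 10 macrophage markers, DESeq2 called 2 as higher, C1qb and Cx3cr1 (adjusted p = 0.0215 and 0.0497), beside the same 1.50%. The part of other cells in the collagen values was not tested.

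**Figure D5:**
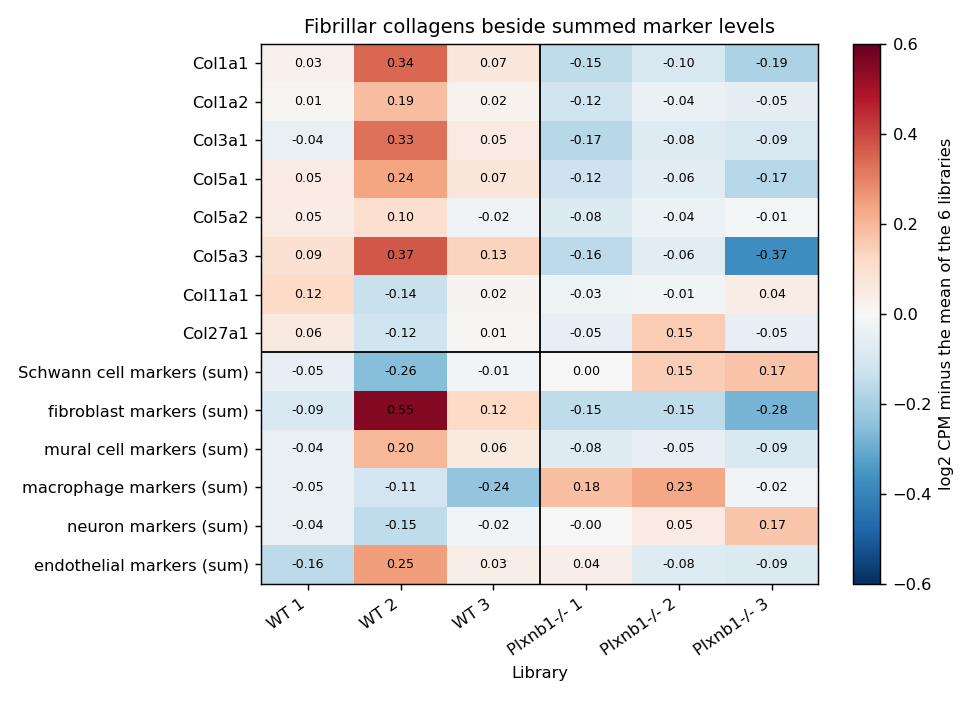
Log2 CPM of 8 fibrillar collagens, and log2 of the summed CPM of 6 marker lists, in each library relative to the mean of the 6 libraries (red above, blue below). WT replicate 2 is the highest library for Col1a1, Col1a2, Col3a1, Col5a1, Col5a2, Col5a3 and the fibroblast, mural and endothelial sums, and the lowest for Col11a1, Col27a1 and the SC and neuron marker sums.

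The genes whose pattern over the 6 libraries was most like that of Col1a1, by Pearson's r of log2 CPM among 14991 other genes with a mean of at least 1 CPM, were Fam129a (r = 0.999), the smooth muscle protein Smtn (0.998), P4hb (0.997), Kars (0.996) and Cdon (0.996). P4hb codes for a subunit of the enzyme that hydroxylates proline in collagen, and its level was 1280, 1429 and 1286 CPM in WT and 1196, 1220 and 1192 CPM in Plxnb1-/- libraries. Among the members, r with Col1a1 was 0.987 for Col5a1, 0.961 for Col3a1, 0.958 for Col1a2, 0.951 for Col5a3 and 0.839 for Col5a2, and it was -0.531 for Col11a1. Thy1 had an r of 0.974 and Acta2 of 0.984. These 6 points share the genotype and the high value of WT replicate 2.

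The genes that fold, cut, crosslink, organise, bind, degrade and regulate collagen were examined as 7 lists of 68 tested genes in all. edgeR called none of them, with a lowest adjusted p of 0.103, and DESeq2 called 10, all lower in Plxnb1-/- cells, beside the 1.50% of all genes. 50 of the 68 were lower, as were 48.5% of all tested genes, and 18 were higher, with a median log2 fold change of -0.12. At an unadjusted p below 0.05 by edgeR, 30 were lower and 1 higher, beside 6.78% and 6.95% of all tested genes. Without overlap, 30 were likewise lower and 1 higher, beside 10.4% and 9.30% of all tested genes.

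Folding and secretion enzymes act on the chains before they leave the cell. Of 21, 17 were lower (48.5% of all tested genes), 11 of them without overlap (10.4% of all tested genes). Neither tool called any of them. Plod2, which hydroxylates lysine for crosslinks, differed most (471 ± 52.1 CPM in WT and 395 ± 26.9 in Plxnb1-/- cells, SD, n = 3; log2 fold change -0.25 ± 0.08, adjusted p = 0.290 by edgeR). P3h2, a prolyl hydroxylase, had the highest change, 0.10 (adjusted p = 0.489 by edgeR).

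Procollagen processing enzymes remove the propeptides, and all 8 listed genes were lower (48.5% of all tested genes). Of these, 3 were lower without overlap (10.4% of all tested genes). At an unadjusted p below 0.05 by edgeR, 2 were lower (6.78% of all tested genes). DESeq2 called 1, Tll1 (1.50% of all tested genes). Tll1, a protease of the family that cuts the C-terminal propeptide, measured 18.8, 17.6 and 17.1 CPM in WT and 13.3, 11.3 and 11.8 CPM in Plxnb1-/- libraries. Here WT replicate 2 was not the highest library. Its log2 fold change of -0.56 had the lowest adjusted p of the 68 genes (0.103 by edgeR and 1.30e-06 by DESeq2). Adamts2, which cuts the N-terminal propeptide, had the least negative change in the list (-0.04).

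Of the 5 lysyl oxidases, which crosslink fibrils, 4 were lower (48.5% of all tested genes). DESeq2 called 2, Lox and Loxl2, beside 1.50% of all tested genes. Lox measured 1081, 1501 and 1111 CPM in WT and 1015, 911 and 834 CPM in Plxnb1-/- libraries (log2 fold change -0.42, adjusted p = 0.276 by edgeR and 0.0243 by DESeq2). Loxl4 had the highest change, 0.08.

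Of 12 fibril organisers, 5 were lower and 7 higher, with a median of 0.006, and DESeq2 called 2, beside 1.50% of all tested genes. Thbs2, a matricellular protein that affects fibril shape, had 3091 ± 414 CPM in WT and 2487 ± 114 in Plxnb1-/- cells (log2 fold change -0.31, adjusted p = 0.273 by edgeR and 0.0296 by DESeq2). Fn1, fibronectin, on which collagen fibrils assemble, was the other DESeq2 call (8377 ± 1172 and 6778 ± 374 CPM, adjusted p = 0.0452 by DESeq2) and was named after its value was seen. Fmod, a proteoglycan of fibrils, had the highest change, 0.27 (adjusted p = 0.557 by edgeR).

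Collagen receptors divided, with 5 lower and 3 higher and none called. Itga1, the α1 integrin that binds collagen, measured 279, 251 and 286 CPM in WT and 312, 302 and 312 CPM in Plxnb1-/- libraries (log2 fold change 0.18, adjusted p = 0.284 by edgeR), which makes it the 1 gene of the 68 higher without overlap. Mrc2, an endocytic collagen receptor, was at -0.29 (adjusted p = 0.342 by edgeR). Among 6 collagen-degrading proteases, the gelatinase Mmp9 had 7.64 ± 2.62 CPM in WT and 4.17 ± 0.97 in Plxnb1-/- cells (log2 fold change -0.87, adjusted p = 0.273 by edgeR and 0.0096 by DESeq2), and Mmp2, another gelatinase, was at 0.09.

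Of 8 regulators of collagen genes, 7 were lower (48.5% of all tested genes), 6 of them without overlap (10.4% of all tested genes). DESeq2 called 4 (1.50% of all tested genes). Scx, a transcription factor of tendon that acts on Col1a1, measured 8.30, 12.4 and 10.4 CPM in WT and 7.08, 7.81 and 6.10 CPM in Plxnb1-/- libraries (log2 fold change -0.57, adjusted p = 0.273 by edgeR and 0.0146 by DESeq2). The other calls, named after their values were seen, were Creb3l1, a factor for type I collagen in bone (-0.32), and the growth factors Tgfb2 (-0.48) and Tgfb3 (-0.33). Smad3, the transducer of TGF-β signals, had the highest change, 0.08 (adjusted p = 0.479 by edgeR).

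Promoter sequences, 250 bases before to 50 bases after the start, were found in RefSeq (GRCm38.p6) for 7 of the 10 genes. Those of Col5a3 and Col11a1, the chains with the largest and the smallest difference among the 7 most abundant, are shown 5′ to 3′ in the direction of transcription, with the letters CCAAT and GGGCGG, or their complements on the other strand, in capitals.

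Col5a3, promoter, chr9:20815018-20815317, minus strand: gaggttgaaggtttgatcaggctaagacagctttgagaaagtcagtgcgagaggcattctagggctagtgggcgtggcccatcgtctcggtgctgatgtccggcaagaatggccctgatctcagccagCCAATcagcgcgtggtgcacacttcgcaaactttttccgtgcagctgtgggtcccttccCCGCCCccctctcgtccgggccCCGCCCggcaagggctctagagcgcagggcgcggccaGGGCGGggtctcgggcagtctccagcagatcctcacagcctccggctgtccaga
Col11a1, promoter, chr3:114030290-114030589, plus strand: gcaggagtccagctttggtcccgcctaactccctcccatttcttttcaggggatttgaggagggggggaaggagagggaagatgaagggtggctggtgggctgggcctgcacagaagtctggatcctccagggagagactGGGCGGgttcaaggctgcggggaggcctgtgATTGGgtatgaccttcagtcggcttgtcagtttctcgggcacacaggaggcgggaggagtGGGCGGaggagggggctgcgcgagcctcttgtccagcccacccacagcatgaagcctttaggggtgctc

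Both held CCAAT, as 37.4% of 32851 promoters of the same length did on either strand, and both held GGGCGG, as 35.7% did. The promoter of Col1a2 held both as well. TATAAA, found in 13.6%, was in the promoter of Col3a1 alone among the 7, and the searched motifs do not overlap one another in the windows shown. These matches describe letters and are not evidence of binding.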

How the data were processed

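The 6 libraries were made from poly(A)-selected RNA with a stranded kit. According to the submitters' processing notes and the methods, the authors trimmed reads with Trim Galore 0.6.5, aligned them to mm10 with Bowtie2 2.4.1, removed duplicates with SAMtools 1.10 and counted reads on exons with FeatureCounts. The deposited counts are not normalized. The authors also deposited FPKM values, which use the span of the gene as its length and served only as an alternative here. Total counts were between 59252048 and 77280964.

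The filter kept genes that reached 2 counts in 5 or more libraries. Genotypes, taken from the sample titles, were compared with edgeR 4.0.16 under R 4.3.3 (TMM factors, quasi-likelihood test with no term but genotype, Benjamini-Hochberg adjustment over all tested genes). SEs came from the fold change and the F statistic. DESeq2 1.42.0, limma 3.58.1 and other factors, filters and left-out libraries were alternatives. DESeq2 was left without an adjusted p for 2 members, Col2a1 and Col24a1, and for Col2a1 without an unadjusted p as well. Levels were divided by merged exon lengths from GENCODE on GRCm38, to which 55141 identifiers matched. Python 3.11.15, pandas 2.3.3 and SciPy 1.17.1 made the tables. On simulated data with 21887 tested genes, edgeR recovered 99 of 100 genes with a difference of 1 on the log2 scale. It recovered 61 of 100 with a difference of 0.5, and it also called 5 genes that had none. The simulation gave every gene the same fixed spread beyond counting error, and the changed genes were drawn from those with more counts. It therefore does not measure how many such differences edgeR would find in these libraries.

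Members and lists were chosen with earlier results of these data known. Named were all members, the largest rise and fall in each pathway list among genes of at least 1 CPM, the 5 genes most like Col1a1, Plxnb1 and cell type markers. DESeq2 with each library left out, lengths of coding transcripts and overlaps with a library left out were added after seeing the data. Some SC markers enter the summed level but are not reported singly here. The other experiments were not analysed here.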

Additional observations from a re-analysis of the deposited data

How the results depend on the processing

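No fibrillar collagen was called in the main test or under 16 of its 18 alternatives. The exceptions were DESeq2 and edgeR without a filter on low counts, each with 2, namely Col1a1 and Col5a3 (adjusted p = 0.0383 and 0.0192 by edgeR without the filter). Over all genes, 8 were called, against 335 by DESeq2, 296 without the filter, 5 with at least 1 CPM in at least 3 libraries, and 3 by limma on FPKM with a pseudocount of 0.1 or 1. With each library left out, the count over all genes ranged from 4 to 25, with 25 without WT replicate 2, and that of fibrillar collagens stayed at 0. DESeq2 without 1 library called between 0 and 4 of them, where it called between 51 and 946 of all tested genes. The members lower without overlap were between 5 and 6, a count that leaving out a library cannot lower.

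With a term for the replicate number (replicate block), 5 genes were called over all genes and no fibrillar collagen. To check for pairs, the deviations of log2 CPM from the genotype mean were correlated over genes between WT and Plxnb1-/- libraries. Replicates with the same number gave r between -0.022 and 0.065, and those with different numbers between -0.053 and 0.049. The numbers were therefore not taken as pairs.

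Values near 0 changed sign. The log2 fold change of Col11a1 was 0.010 and 0.0074 on FPKM and between -0.066 and 0.059 with 1 library left out, that of Col24a1 between -0.24 and 0.031, and that of Col27a1 between -0.032 and 0.077. Col11a1 was at 0.059 without WT replicate 1, 0.0020 without WT replicate 3, 0.0087 without Plxnb1-/- replicate 1 and 0.0024 without Plxnb1-/- replicate 2. Col24a1 was at 0.031 without WT replicate 3 and 0.0084 without Plxnb1-/- replicate 2. Col27a1 was at -0.0068 without WT replicate 2 and -0.032 without Plxnb1-/- replicate 2. The log2 difference in the ratio of Col1a1 to Col1a2 lay between -0.18 and -0.11 with 1 library left out. By coding transcripts, 5 of the 10 genes kept their place in the order of WT levels, as a result of the lengths alone. The causes of the other changes were not tested.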
